A study of Homo sapiens with 16 samples.

Results

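Leukotrienes and prostaglandins are lipid signals made from arachidonic acid, and the 9 genes described here encode the enzymes and the helper protein of that synthesis: PLA2G4A, ALOX5, ALOX5AP, LTA4H, LTC4S, PTGS1, PTGS2, PTGES and TBXAS1. They were chosen by platform gene symbol, and every probe set that carried 1 of these symbols alone was taken, which gave 10 of the 12626 probe sets on the array. The 9 genes stand among 8225 genes with a probe set of their own symbol. Expression was measured in U937, a human monocytic leukaemia line, in which AML1-ETO was placed under a tetracycline promoter. The t(8;21) translocation of acute myeloid leukaemia creates this fusion. All 8 groups carried the construct, and each group had 2 arrays. Control cells were taken at 0, 24, 48 and 72 h and AML1-ETO induced cells at 12, 24, 48 and 72 h. The labels do not say how induction was switched on, whether the line was 1 clone, or whether replicates came from separate cultures. Each p-value rests on the spread between the 2 arrays of a group, shared over all 8 groups and drawn toward that of probe sets of similar level. This spread could be technical.

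Cytosolic phospholipase A2, encoded by PLA2G4A, frees arachidonic acid from membranes. In the leukotriene branch, 5-lipoxygenase (ALOX5) works with its helper FLAP (ALOX5AP) to make leukotriene A4, which LTA4H turns into the neutrophil attractant leukotriene B4 and LTC4S into the cysteinyl leukotriene C4. In the prostaglandin branch, the cyclooxygenases PTGS1 and PTGS2 make prostaglandin H2, from which PTGES makes prostaglandin E2 and TBXAS1 thromboxane A2. Monocytes and macrophages are known makers of leukotriene B4, prostaglandin E2 and thromboxane.

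Deposited intensities are on a linear scale and can fall below 0. Levels of different probe sets are not comparable. Before log2 was taken, values under a floor of 135.6, the 40th percentile of all values, were set to it. Testing required 2 or more arrays above 292.7, the median of all values. A fold change is taken from fitted log2 means, and "at least" marks one whose lower side touched the floor. A call is an adjusted p under 0.05 in limma over all 7824 tested probe sets. Of the 10 probe sets, 7 were tested, 1 for each of 7 genes. The other 3 lay under the floor on all 16 arrays: PTGS2 read between -142.1 and 51.5, PTGES between -1732 and -889.8, and the second ALOX5 probe set between -1301 and -473.1. No level or change is given for them.

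Arrays had median intensities of 220.3 to 337.5. Across probe sets, which are not independent, the 2 replicates of each group gave r = 0.912 to 0.955. The labels were checked with RUNX1T1, the gene that supplies ETO. Its 1 tested probe set stayed under the floor in all 8 control arrays and both induced arrays of 12 h, read 1592 and -47.5 in the induced arrays of 24 h, and at least 3974 in the 4 induced arrays of 48 and 72 h. Of 11 monocytic markers, 9 were on the array. LYZ, CD4 and MNDA read at least 2086 on every array, while CSF1R and ITGAM lay under the floor on all 16 arrays, CTSS on 15, CD68 on 12 and CD14 on 9. In the average over times, 2 of the 6 tested markers rose, CD4 (log2 0.57) and MNDA (log2 0.46), and 1 fell, SPI1 (log2 -2.46). These stand beside 19.7% of all tested genes called higher and 13.8% called lower. LYZ (log2 0.35), CD14 (log2 -0.67) and CD68 (log2 0.05) were not called. At 24 h the summed level of the 9 markers was 18991 to 20870 in induced cells and 14070 to 20738 in controls, and these ranges overlapped. At 48 h the sum was 15820 to 16167 in induced cells and 12912 to 15183 in controls. At 72 h it was 15806 to 18831 and 12308 to 14433, so the pairs were apart at 48 and 72 h. The sum adds levels that are not comparable between probe sets, so the brightest markers weigh most. The part of these markers in the results was not tested.

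Averaged over 24, 48 and 72 h, PTGS1, PLA2G4A and ALOX5AP were higher in induced cells than in same-time controls, and 0 of the 7 tested genes were lower. Across all tested probe sets, 31.9% were called in this comparison, 18.5% as higher and 13.4% as lower, so 3 of 7 is no result about these genes as a group. The median of the 7 log2 differences was 0.50, beside 0.10 over all tested probe sets. At 24 h, 0 of the 7 were called, as were 0% of all probe sets, with 1 of 7 (PLA2G4A) and 5.07% of all at an unadjusted p under 0.05 in limma. At 48 h, 2 of 7 were higher (PTGS1 and ALOX5AP) and 0 lower, beside 10.5% and 8.68% of all, 19.2% together. At 72 h 1 of 7 was higher (PTGS1) and 0 lower, beside 16.1% and 13.9% of all, 30% together. The median of the 7 was log2 0.60 at 48 h and 0.96 at 72 h, beside 0.09 and 0.18 over all. The 72 h median was the value of LTC4S, and it was 0.58 without control replicate 2 of 72 h. In bulk samples, a change in the number of cells of a type and a change in RNA per cell cannot be told apart. Scaling matters here: centring each array on its median moved the median log2 difference of all probe sets by -0.19, took the share of higher calls from 58.1% to 38.5%, and left PTGS1 as the 1 member called in the average and at 48 h.

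**Figure D1:**
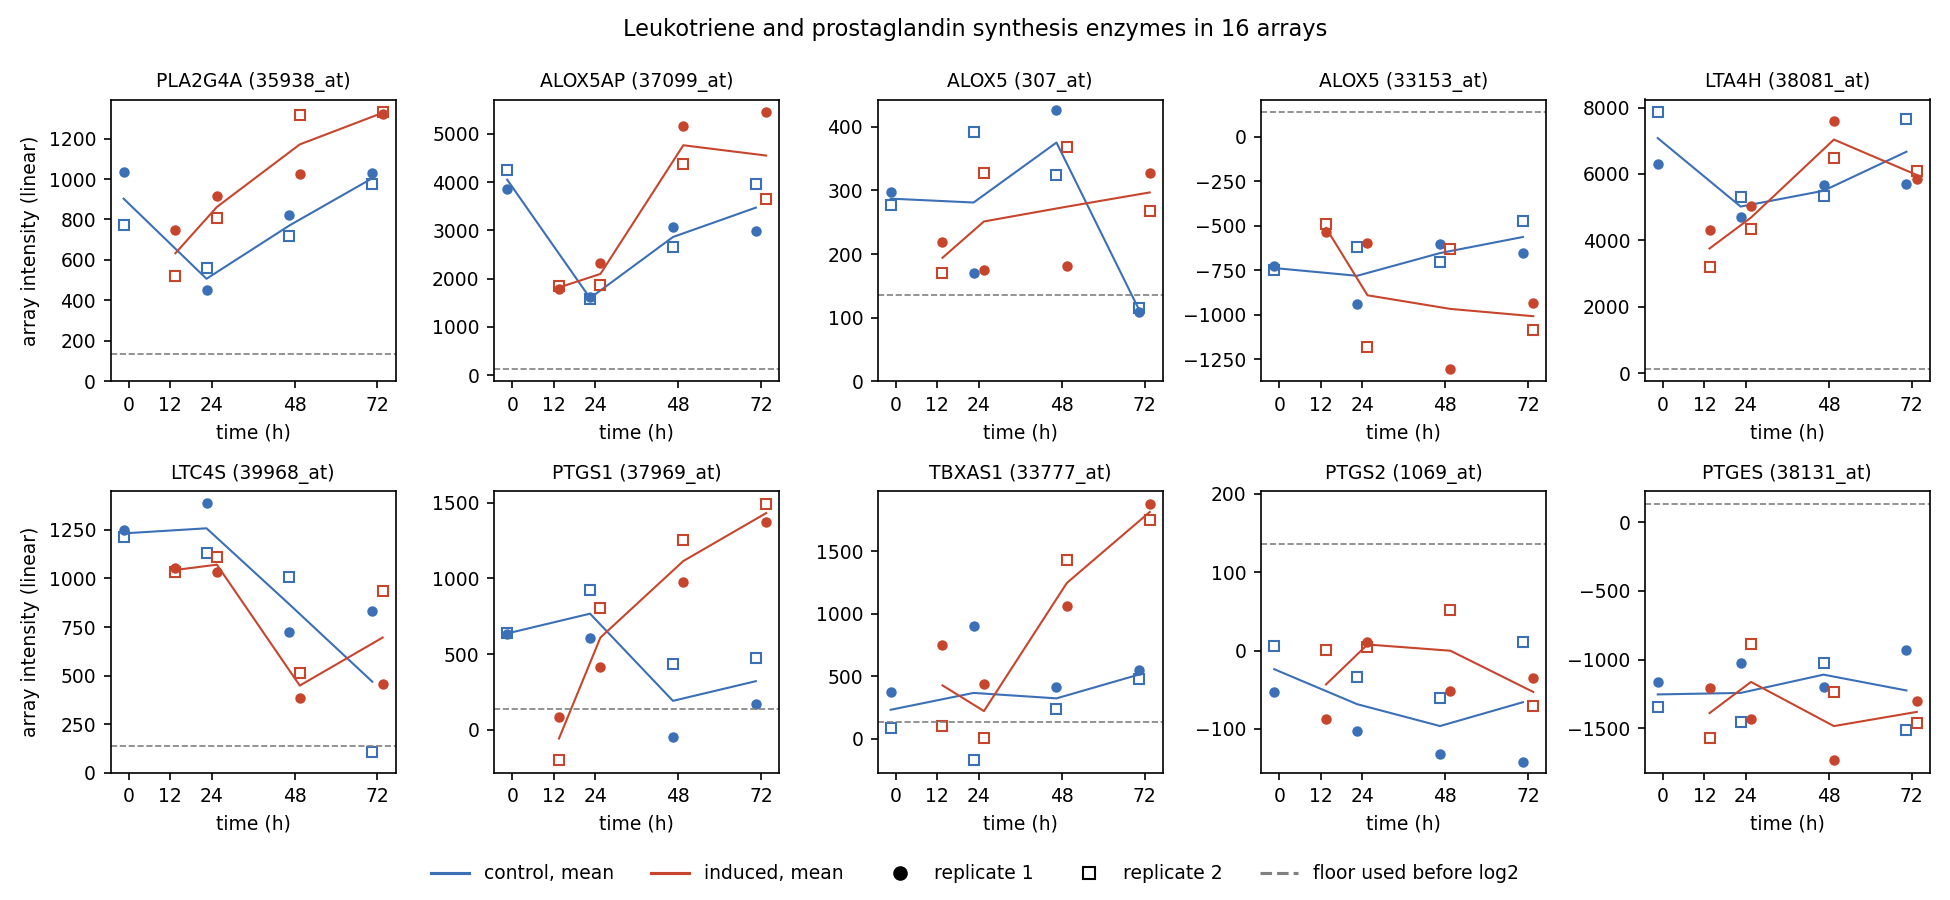
Array intensity (linear, y axis) against time in hours (x axis) for all 10 probe sets, with control cells in blue and induced cells in red; filled circles are replicate 1, open squares replicate 2, lines join group means, and the dashed line is the floor of 135.6. PTGS1 and TBXAS1 separate from the controls at 48 and 72 h. The ALOX5AP mean is lowest at 24 h in controls and at 12 h, the first time taken, in induced cells. PTGS2, PTGES and the second ALOX5 probe set stay under the floor.

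The promoters of the members are shown for those the results turn on, with LTC4S for contrast. RefSeq promoter windows (GRCh38.p14) were found for 8 of the 9 members, ALOX5 having no entry, and the 250 bases before each start site were searched on both strands. The letters searched were TGTGGT or TGCGGT for the RUNX proteins, whose DNA-binding part AML1-ETO shares, GAGGAA for a PU.1 core, and GGGCGG for an SP1 box. Of 35116 windows of this length in the table, 16.3% held the RUNX letters, 23.6% the PU.1 core and 42.6% the SP1 box. Capitals mark the matches, as their reverse complement where the match lies on the opposite strand. All windows below are on the + strand, and PTGS1 has 2 start sites in the table.
PTGS1, first start site, chr9:122370283-122370532: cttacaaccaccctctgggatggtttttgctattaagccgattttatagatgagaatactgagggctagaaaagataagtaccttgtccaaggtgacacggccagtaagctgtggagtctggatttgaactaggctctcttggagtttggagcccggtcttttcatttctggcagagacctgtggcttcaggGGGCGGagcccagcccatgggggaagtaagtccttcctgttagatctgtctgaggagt
PTGS1, second start site, chr9:122375052-122375301: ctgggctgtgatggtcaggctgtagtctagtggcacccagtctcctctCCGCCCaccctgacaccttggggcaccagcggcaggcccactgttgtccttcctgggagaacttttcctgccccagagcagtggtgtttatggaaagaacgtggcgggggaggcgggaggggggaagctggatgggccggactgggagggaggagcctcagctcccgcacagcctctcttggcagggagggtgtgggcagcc
TBXAS1, chr7:139829014-139829263: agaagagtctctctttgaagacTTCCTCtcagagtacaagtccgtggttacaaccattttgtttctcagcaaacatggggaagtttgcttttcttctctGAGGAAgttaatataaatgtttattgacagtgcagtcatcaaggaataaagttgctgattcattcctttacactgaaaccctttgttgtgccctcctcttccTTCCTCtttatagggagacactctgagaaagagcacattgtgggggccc
ALOX5AP, chr13:30713235-30713484: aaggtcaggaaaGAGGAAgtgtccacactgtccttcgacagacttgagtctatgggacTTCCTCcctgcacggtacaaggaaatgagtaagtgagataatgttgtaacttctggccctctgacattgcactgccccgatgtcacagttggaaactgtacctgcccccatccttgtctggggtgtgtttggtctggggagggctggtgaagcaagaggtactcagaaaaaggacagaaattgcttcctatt
PLA2G4A, chr1:186828699-186828948: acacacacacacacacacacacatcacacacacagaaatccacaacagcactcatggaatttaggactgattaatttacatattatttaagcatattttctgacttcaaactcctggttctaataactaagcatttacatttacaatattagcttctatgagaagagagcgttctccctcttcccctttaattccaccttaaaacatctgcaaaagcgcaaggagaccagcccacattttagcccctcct
LTC4S, chr5:179793736-179793985: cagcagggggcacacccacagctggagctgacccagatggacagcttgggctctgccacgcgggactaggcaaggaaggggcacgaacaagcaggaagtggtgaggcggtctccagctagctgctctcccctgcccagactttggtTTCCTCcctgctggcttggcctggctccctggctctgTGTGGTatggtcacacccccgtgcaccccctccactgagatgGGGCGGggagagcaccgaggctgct

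Among the 9 windows of the members, 1 held the RUNX letters, that of LTC4S at 67 bases before the start. The PU.1 core was found in 3 windows: 3 times in TBXAS1, 2 times in ALOX5AP and 1 time in LTC4S. The SP1 box was found in 4 windows, those of both PTGS1 start sites, PTGES and LTC4S. The windows of PLA2G4A, LTA4H and PTGS2 held none of the 3. A match describes letters in the window and no binding was measured.

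PLA2G4A, at the head of the pathway, read 454 and 560.1 in the control arrays of 24 h, 823 and 718 at 48 h, and 1031 and 977 at 72 h. Induced arrays read 915 and 809 at 24 h, 1024 and 1318 at 48 h, and 1321 and 1333 at 72 h. At each of these times both induced arrays lay above both controls, although the controls of 72 h lay above the induced arrays of 24 h and overlapped those of 48 h. The average difference was 1.51-fold (log2 0.59, SE 0.17, adjusted p = 0.0179). No single time passed the test: the log2 differences were 0.77 at 24 h (adjusted p = 0.922), 0.60 at 48 h (adjusted p = 0.2) and 0.40 at 72 h (adjusted p = 0.338). The call ended without induced replicate 1 of 24 h (adjusted p = 0.052), without induced replicate 2 of 48 h (adjusted p = 0.054), after median centring (log2 0.38, adjusted p = 0.217), against control 0 h (log2 0.30, adjusted p = 0.447), and with the 48 and 72 h average alone (log2 0.50, adjusted p = 0.0799).

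ALOX5AP, which presents arachidonic acid to 5-lipoxygenase, moved in both arms of the time course. Controls read 3855 and 4251 at 0 h, 1620.1 and 1572 at 24 h, 3073 and 2653 at 48 h, and 2986 and 3959 at 72 h. Induced cells read 1778 and 1856 at 12 h, 2329 and 1867 at 24 h, 5163 and 4370.1 at 48 h, and 5449.8 and 3656 at 72 h. Induced arrays lay above both same-time controls at 24 and 48 h and overlapped them at 72 h. The average difference was 1.41-fold (log2 0.50, SE 0.12, adjusted p = 0.00713), and at 48 h it was 1.66-fold (log2 0.73, SE 0.21, adjusted p = 0.029). At 24 and 72 h the differences of log2 0.39 (adjusted p = 0.991) and 0.38 (adjusted p = 0.213) were not called.

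The uninduced cells set the scale of these changes. From 0 to 24 h, control ALOX5AP fell 2.54-fold (log2 -1.34, SE 0.21, adjusted p = 0.0196), a contrast in which 0.498% of all probe sets were called and 0.332% as lower. The later controls were log2 -0.50 (adjusted p = 0.51) and -0.24 (adjusted p = 0.832) from 0 h at 48 and 72 h, contrasts with 0.0128% and 0.0383% of all called. The 24 h call in controls ended after median centring (adjusted p = 0.0925) and without control replicate 1 or 2 of 0 h (adjusted p = 0.0602 and 0.0789) or control replicate 1 of 24 h (adjusted p = 0.11). When control 0 h was the reference for every time, the average ALOX5AP difference turned to log2 -0.20 (adjusted p = 0.49). The average call also ended after median centring (log2 0.29, adjusted p = 0.194). The 48 h call ended without any 1 of the 4 arrays of that time, with adjusted p = 0.169 and 0.0596 without induced replicate 1 and 2, and 0.0717 and 0.172 without control replicate 1 and 2.

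ALOX5 itself, the enzyme that ALOX5AP serves, stayed near the floor, and its tested probe set read between 108.2 and 427.1 over all 16 arrays. Controls read 298 and 277 at 0 h, 170.005 and 392 at 24 h, 427 and 324 at 48 h, and 108 and 115 at 72 h, the last pair under the floor. Induced cells read 218 and 170.04 at 12 h, 175 and 328 at 24 h, 181 and 369 at 48 h, and 327 and 267 at 72 h. Only at 72 h were the 2 pairs apart in the direction of a rise, by at least 2.18-fold, and this did not pass the test (log2 1.12, SE 0.50, adjusted p = 0.109). The average difference was log2 0.16, with a 95% interval of -0.46 to 0.78 (adjusted p = 0.705).

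LTA4H, the hydrolase that makes leukotriene B4, read between 3186 and 7859 on all arrays. Controls read 6302 and 7859 at 0 h, 4715 and 5318 at 24 h, 5659 and 5329 at 48 h, and 5698 and 7642 at 72 h. Induced cells read 4322 and 3186 at 12 h, 5023 and 4350 at 24 h, 7605 and 6469 at 48 h, and 5835 and 6103 at 72 h. The pairs overlapped at 24 and 72 h, and at 48 h both induced arrays were the higher ones. The average difference was log2 0.04, with a 95% interval of -0.20 to 0.27 (adjusted p = 0.833). At 48 h the difference was log2 0.35 (SE 0.19, adjusted p = 0.238).

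LTC4S, the synthase of cysteinyl leukotrienes, read at most 1007 on every array of 48 and 72 h and at least 1032 on every earlier array. Controls read 1252 and 1212 at 0 h, 1386 and 1130.3 at 24 h, 727 and 1007 at 48 h, and 830.3 and 107.6 at 72 h. Induced cells read 1053 and 1035 at 12 h, 1032 and 1110.2 at 24 h, 385 and 513 at 48 h, and 459 and 933 at 72 h. Induced arrays lay below both controls at 24 and 48 h, and the pairs overlapped at 72 h. No contrast passed the test: log2 -0.23 at 24 h (adjusted p = 1), -0.94 at 48 h (adjusted p = 0.342) and 0.96 at 72 h (adjusted p = 0.27). The 72 h value turned on the controls: it was log2 2.27 (adjusted p = 0.00379) without control replicate 1 and -0.34 (adjusted p = 0.607) without control replicate 2. The mast cell markers CPA3, HDC and FCER1A, of another cell type that makes leukotriene C4, lay under the floor on at least 15 arrays each.

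PTGS1, the constitutive cyclooxygenase, had the largest average difference among the members that were called. Controls read 633 and 639 at 0 h, 607 and 927 at 24 h, -50.7 and 432 at 48 h, and 169 and 472 at 72 h. Induced cells read 83.5 and -200.4 at 12 h, 416 and 803 at 24 h, 976 and 1253 at 48 h, and 1371 and 1493 at 72 h. The 4 induced arrays of 48 and 72 h lay above all 8 control arrays, while at 24 h the pairs overlapped and at 12 h both induced arrays were under the floor. Control arrays of 48 and 72 h also read below every control of 0 and 24 h.

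Induced PTGS1 was higher by at least 4.57-fold at 48 h (log2 2.19, SE 0.58, adjusted p = 0.0181) and 5.06-fold at 72 h (log2 2.34, SE 0.58, adjusted p = 0.00781). In the average it was 2.61-fold higher on the floored log2 scale (log2 1.38, SE 0.34, adjusted p = 0.00615), and at 24 h it was log2 -0.38 (adjusted p = 1). The controls of 48 and 72 h differed from those of 0 h by log2 -1.39 (adjusted p = 0.499) and -1.17 (adjusted p = 0.686). Against control 0 h the average was log2 0.61 (adjusted p = 0.425), which ends the call. The 48 h call ended without induced replicate 1 (adjusted p = 0.0604), induced replicate 2 (adjusted p = 0.109) or control replicate 1 (log2 1.36, adjusted p = 0.199), and the 72 h call without induced replicate 2 (adjusted p = 0.0507) or control replicate 1 (log2 1.60, adjusted p = 0.105). With the floor at the 30th percentile the 72 h value gave an adjusted p = 0.0799.

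TBXAS1, the thromboxane synthase, had high values at the same times as PTGS1, without a call. Controls read 377 and 88.5 at 0 h, 905 and -169.7 at 24 h, 413 and 235 at 48 h, and 550.4 and 480.4 at 72 h. Induced cells read 753 and 102 at 12 h, 441 and 2.8 at 24 h, 1063 and 1433 at 48 h, and 1881 and 1750.5 at 72 h. Replicates were far apart at 0, 12 and 24 h, and the 4 induced arrays of 48 and 72 h lay above all 8 control arrays. This was so for 2 of the 7 tested members, PTGS1 and TBXAS1, and for 14.4% of all tested probe sets. The differences were 3.96-fold at 48 h (log2 1.99, SE 0.92, 95% interval 0.01 to 3.97, adjusted p = 0.163) and 3.53-fold at 72 h (log2 1.82, SE 0.92, 95% interval -0.16 to 3.80, adjusted p = 0.158), and the average was log2 1.10 (adjusted p = 0.135). The average was log2 1.55 without control replicate 1 of 24 h. It passed the test over 48 and 72 h alone (log2 1.90, adjusted p = 0.0341, with 37.4% of all called), an alternative chosen after seeing the data. It also passed with the floor at the 50th percentile (log2 1.04, adjusted p = 0.0209). With that floor the 48 h (log2 1.83, adjusted p = 0.0301) and 72 h (log2 1.82, adjusted p = 0.0212) differences passed as well.

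PTGS1 and TBXAS1 are both abundant in platelets. Of 5 platelet and megakaryocyte markers, all on the array, PF4, PPBP, GP9 and GP1BA did not pass the filter on low values, and ITGA2B, the 1 tested, differed by log2 0.10 (adjusted p = 0.72). The summed level of the 5 ranged from 1200.3 to 1529 in induced cells and 855.5 to 1348 in controls at 48 h, and from 1185 to 1538 and 896 to 1423 at 72 h. These ranges overlapped at both times, and the part of these markers in the result was not tested.

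**Figure D2:**
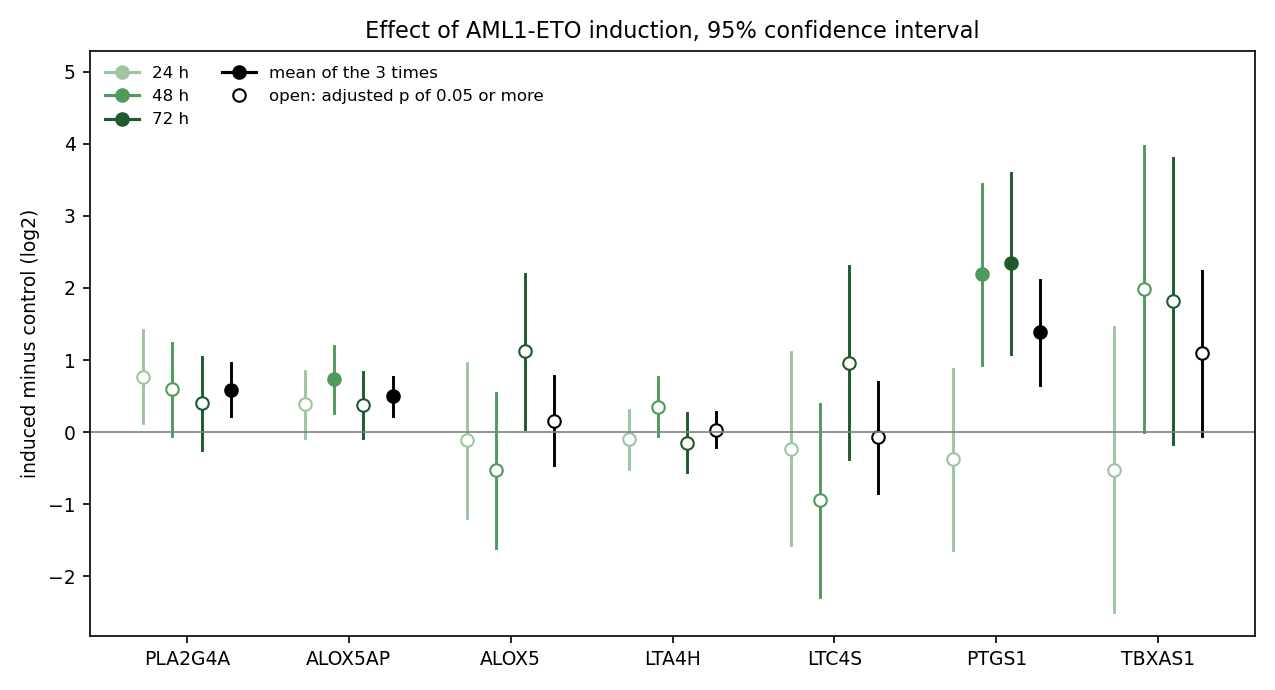
Induced minus control on the log2 scale (y axis) for the 7 tested members (x axis), at 24, 48 and 72 h in green and as the mean of the 3 times in black, with 95% confidence intervals; filled points have an adjusted p under 0.05. PTGS1 is called at 48 h, 72 h and in the mean, ALOX5AP at 48 h and in the mean, and PLA2G4A in the mean alone.

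Whether the effect differed between 24, 48 and 72 h was tested with an F test, which called 10.9% of all probe sets and 0 of the 7 members (unadjusted p under 0.05 for PTGS1 alone). For PTGS1 the F test gave an adjusted p = 0.0708, which passed with the floor at the 50th percentile (adjusted p = 0.0223) and without control replicate 2 of 48 h (adjusted p = 0.0247) or of 72 h (adjusted p = 0.0375). Without control replicate 1 of 72 h, LTC4S passed (adjusted p = 0.0123). Taken alone, the 72 h effect of PTGS1 exceeded its 24 h effect by log2 2.72 (adjusted p = 0.0421), in a contrast that called 14.5% of all probe sets. For TBXAS1 the same step was log2 2.34 (adjusted p = 0.273), and for ALOX5AP it was -0.01 (adjusted p = 0.991).

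At 12 h, induced cells could be set only against controls of 0 h, so that induction and time in culture cannot be told apart. ALOX5AP fell 2.23-fold (log2 -1.16, SE 0.21, adjusted p = 0.0126) and LTA4H 1.90-fold (log2 -0.92, SE 0.19, adjusted p = 0.0218). These 2 of 7 members stand beside 2.12% of all probe sets called lower and 3.28% called either way. ALOX5AP at 12 h in induced cells lay in the range of 1778 to 1856, above the 1572 to 1620.1 of controls at 24 h, which share the same 0 h reference. LTA4H in those controls was log2 -0.49 from 0 h (adjusted p = 0.265). PTGS1 was at least 4.69-fold lower at 12 h without passing the test (log2 -2.23, adjusted p = 0.0548). It passed with the stricter filter (adjusted p = 0.0499), after quantile normalization (adjusted p = 0.0427), and without any 1 of the 4 control arrays of 48 and 72 h (adjusted p = 0.041 to 0.0477). Both calls at 12 h ended after median centring (log2 -0.94, adjusted p = 0.109 for ALOX5AP, and log2 -0.71, adjusted p = 0.204 for LTA4H) and without control replicate 2 of 0 h (adjusted p = 0.0831 and 0.137). The ALOX5AP call also ended without induced replicate 1 (adjusted p = 0.057), and the LTA4H call without induced replicate 2 (adjusted p = 0.117).

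The rest of the eicosanoid pathway was read from a list of 66 other genes, of which 50 were on the array and 32 were tested, each by its probe set of highest mean. In the average, 10 of 32 rose and 4 fell, beside 19.7% and 13.8% of all tested genes, and their median was log2 0.11 beside 0.10. Of the 32, CBR1, EPHX1 and PTGIR passed the filter on low values through induced arrays alone, and EPHX1 and PTGIR are among the 10, so these counts support nothing about the list. At 24 h 0 of 32 were called, as were 0% of all genes, with 1 of 32 at an unadjusted p under 0.05 in limma. At 48 h 6 rose and 3 fell, beside 11.4% and 8.94%. At 72 h 7 rose and 4 fell, beside 16.9% and 14.3%, with a median of log2 0.51 beside 0.19. EPHX1 and PTGIR are counted as higher at 48 and 72 h too, so the same limit applies.

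Among genes of phospholipid turnover, 2 of 9 rose and 2 fell in the average, beside 19.7% and 13.8% of all tested genes. PLA2G4C, a calcium-independent relative of PLA2G4A, read 4.04 and 147 in controls and 2348 and 3137 in induced cells at 72 h, at least 19.2-fold apart (log2 4.26, SE 0.50, adjusted p = 3.25e-05). At 24 h its pairs overlapped, at -14 and 328 in controls and 319 and 288 in induced cells. MBOAT7, which puts arachidonic acid back into phosphatidylinositol, rose 2.28-fold in the average (log2 1.19, SE 0.13, adjusted p = 1.79e-05), and its second probe set rose too (log2 1.11, adjusted p = 0.000272). The phospholipase C genes PLCB2 and PLCG2, which make diacylglycerol, fell 2.16-fold (adjusted p = 8.57e-05) and 1.89-fold (adjusted p = 9.94e-05). A second PLCG2 probe set fell too (log2 -1.21, adjusted p = 0.000211).

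Among 6 tested lipoxygenases and partners, 2 rose and 0 fell in the average, beside 19.7% and 13.8% of all tested genes. GPX4, the peroxidase that reduces lipid hydroperoxides, read 7633 and 7789 in controls and 14658 and 13507 in induced cells at 48 h, 1.82-fold apart (adjusted p = 0.00141). Its calls at 48 h, 72 h and in the average ended after median centring (adjusted p = 0.138, 0.165 and 0.0778). MAPKAPK2, a kinase that phosphorylates 5-lipoxygenase, rose 1.58-fold in the average (adjusted p = 0.000156), while its 3 other tested probe sets were not called. The lipoxygenase genes ALOX12, ALOX12B and ALOX15 were not called.

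Among 5 tested terminal synthases, the LTC4S relatives MGST2 and MGST3 rose in the average, beside 19.7% of all tested genes. In controls MGST3 read 1995 and -646.5 at 24 h, 811 and 1659 at 48 h, and 3536 and 2328 at 72 h. In induced cells it read 1911 and 1525 at 24 h, 7694 and 6365 at 48 h, and 9595 and 8272 at 72 h. The pairs overlapped at 24 h and were apart at 48 and 72 h. MGST3 was 3.95-fold higher in the average on the floored log2 scale (log2 1.98, SE 0.57, adjusted p = 0.0168), a call that ended when all probe sets were tested (adjusted p = 0.0921) and against control 0 h (adjusted p = 0.0859). MGST2 rose 1.39-fold (log2 0.48, SE 0.14, adjusted p = 0.0205), and this call ended after median centring (log2 0.27, adjusted p = 0.364), when all probe sets were tested (adjusted p = 0.0743), with eBayes without a trend (adjusted p = 0.0519), over 48 and 72 h alone (adjusted p = 0.0522), and without any 1 of 4 single arrays (adjusted p = 0.0545 to 0.0666): induced replicate 2 of 72 h, control replicate 1 of 48 h, control replicate 1 of 72 h and control replicate 2 of 24 h. PTGES3, a cytosolic prostaglandin E synthase and co-chaperone, differed by log2 -0.20 (adjusted p = 0.143).

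Of 5 tested genes of clearance and transport, ABCC4 fell in the average, beside 13.8% of all tested genes. EPHX1 is not counted as a rise because only induced arrays carried it past the filter. EPHX1, an epoxide hydrolase, was under the floor in both controls at 72 h and read 954 and 866 in induced cells, at least 6.70-fold higher, with no test read because it was admitted by those arrays. ABCC4, an exporter of prostaglandins, fell 2.08-fold in the average (log2 -1.06, SE 0.24, adjusted p = 0.00352), and its second probe set fell as well (log2 -1.17, adjusted p = 0.00272). Against control 0 h the ABCC4 average was log2 -0.65 (adjusted p = 0.21).

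Among 7 tested receptors, FPR2 and PTGER3 rose in the average and PTGER2 fell, beside 19.7% and 13.8% of all tested genes. PTGIR is left out of this count because only induced arrays carried it past the filter. PTGIR, the prostacyclin receptor, was under the floor on all 8 control arrays and read 582 and 431 at 48 h and 472 and 347 at 72 h in induced cells, at least 3.69-fold and 2.98-fold higher, likewise with no test read. PTGER2, a receptor for prostaglandin E2, fell 3.11-fold at 48 h (adjusted p = 0.0123) and at least 3.05-fold at 72 h (adjusted p = 0.00845). With the floor at the 50th percentile these calls ended (adjusted p = 0.0553 and 0.248), and the 48 h call also ended without induced replicate 1 (adjusted p = 0.0823) or control replicate 2 (adjusted p = 0.095). FPR2, a receptor for lipoxin A4, rose by log2 0.49 in the average (adjusted p = 0.0168), and PTGER3 rose 1.34-fold (adjusted p = 0.0412). Both calls ended after quantile normalization (adjusted p = 0.0629 and 0.0714) and median centring (adjusted p = 0.318 and 0.364). The FPR2 call ended without control replicate 2 of 48 h (adjusted p = 0.0557), and the PTGER3 call without any 1 of 8 arrays: induced replicate 2 of 24 h, both induced replicates of 48 h, induced replicate 2 of 72 h, control replicate 2 of 24 h, control replicate 1 of 48 h or either control of 72 h (adjusted p = 0.0632 to 0.115). The leukotriene B4 receptor LTB4R (log2 -0.17, adjusted p = 0.664) and the thromboxane receptor TBXA2R (log2 0.04, adjusted p = 0.772) were not called.

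**Figure D3:**
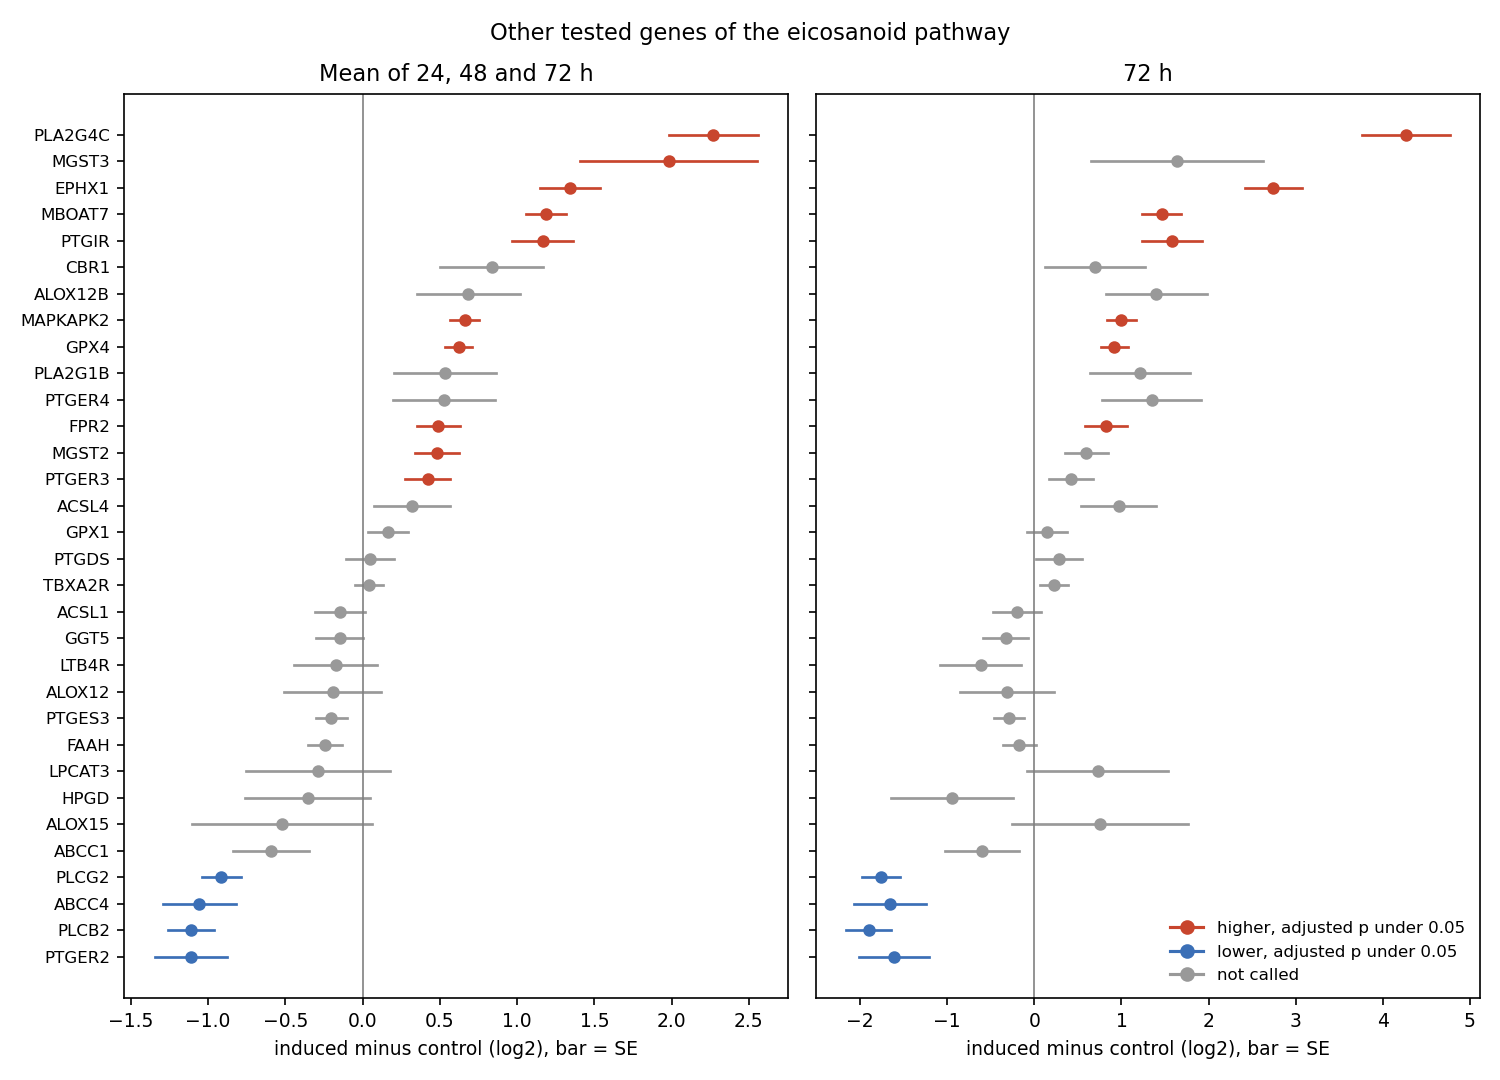
Induced minus control on the log2 scale (x axis) with standard errors for the 32 other tested genes of the pathway, in the mean of 24, 48 and 72 h on the left and at 72 h on the right; red is higher, blue lower and grey not called. In the mean 10 genes are red and 4 blue, with PLA2G4C at the top and PTGER2 at the bottom. EPHX1 and PTGIR, among the red, passed the filter through induced arrays alone.

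Genes with the most similar course were ranked over the 8 group means on the floored log2 scale, each centred on its own mean, by root mean square difference, as a description over 5605 other genes. For ALOX5AP they were FOXO1 (0.09), BBIP1 (0.12) and IGBP1 (0.16), against a median of 0.63 over all genes. FOXO1 averaged 1328 in controls at 0 h, 529 at 24 h, 599.7 in induced cells at 12 h and 1403 at 48 h. For PTGS1 they were INPP5B (0.45), PTPRN (0.45) and NEK7 (0.47), against a median of 1.06. INPP5B was under the floor in both induced arrays of 12 h, 1 control of 48 h and 1 control of 72 h. For PLA2G4A they were TMSB10 (0.15), UBXN1 (0.15) and GNAI3 (0.16), against a median of 0.53. The UBXN1 controls of 24 h were far apart, at 1703 and 426. GNAI3 had 1 array under the floor in controls of 0 h, controls of 24 h and induced cells of 12 h. Among the members, PLA2G4A was the 37th nearest gene to ALOX5AP (0.26) and LTA4H the 242nd (0.35), while TBXAS1 ranked 1859th from PTGS1 (0.96).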

How the data were processed

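RNA of 16 U937 samples was hybridised to Affymetrix U95Av2 arrays, per the labels' protocols. The authors' deposited values are linear intensity values, 1 per probe set, multiplied by a scale factor for each array per the labels. All arrays have a mean of 1370.9, and 25.8% of values are below 0. How probe pairs were summarised is not stated in the labels. Controls of 12 h were not among the 16 samples.

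With R 4.3.3 and limma 3.58.1, 1 mean per group was fitted to log2 of the floored values of all 16 arrays (lmFit, eBayes with a mean-variance trend, 8 residual degrees of freedom). The 67 control probe sets were left out. P-values are two-sided and Benjamini-Hochberg adjusted over 7824 probe sets. Having only 2 arrays a group limits the precision. The average contrast is the mean of the same-time differences at 24, 48 and 72 h. Symbols came from the platform table, and 546 probe sets with several symbols were not named.

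All members were named. Other pathway genes were named where called or to complete a step, and for each called member the 3 genes of nearest profile. The members, gene lists, marker lists and motifs were chosen with earlier results of these data known. Alternatives changed the floor, filter, scaling, variance model, replicate block, reference and arrays. The model was tested on simulated data.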

Additional observations from a re-analysis of the deposited data

Results flagged for a closer look

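PTGS1 was singled out because its effect at 72 h differed from that at 24 h (log2 difference 2.72, adjusted p = 0.0421 in limma). The F test over the 3 times did not pass in the main setting (adjusted p = 0.0708). For PTGS1 it passed with the floor at the 50th percentile (adjusted p = 0.0223), with the replicate number as a block (adjusted p = 0.026) and without some single arrays. Of the other pathway genes, PLA2G4C, PLCB2, PLCG2 and GPX4 had an effect that differed between 24, 48 and 72 h by that F test. It called 10.9% of all probe sets. The adjusted p was 0.0104 for PLA2G4C, 0.00938 for PLCB2, 0.00712 for PLCG2 and 0.0309 for GPX4. EPHX1 (adjusted p = 0.00587) and PTGIR (adjusted p = 0.0454) are not counted. They passed the filter on low values only through induced arrays of 48 and 72 h, so nothing is read from their tests. The PLA2G4C effect was log2 0.52 at 24 h, 2.03 at 48 h and 4.26 at 72 h. The PLCB2 effect was log2 -0.0019 at 24 h, -1.43 at 48 h and -1.90 at 72 h.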

How the results depend on the processing

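Counts of called members depended on the setting. For the average, median centring gave 1 (PTGS1), control 0 h gave 0, and the floor at the 50th percentile gave 4 (TBXAS1 added), against 3. At 48 h, testing all probe sets gave 0, and median centring and eBayes without a trend gave 1 each, and the floor at the 50th percentile gave 3 (TBXAS1 added), against 2. At 72 h, the floor at the 50th percentile gave 2 and at the 30th percentile 0, against 1. For 12 h against 0 h, median centring gave 0, and testing all probe sets and eBayes without a trend gave 1 each, against 2. For controls over time those 3 settings gave 0, against 1. The F test between times called 1 member (PTGS1) with the floor at the 50th percentile (adjusted p = 0.0223), against 0. With control 0 h, 9 pathway genes were called in the average, against 14. Among all probe sets, median centring gave 42 calls at 12 h, against 257.

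Same-numbered replicates did not deviate together in general: correlations between groups ran from -0.15 to 0.25, with 7 of 28 over 0.1. With the replicate number as a block the F test called 1 member (PTGS1, adjusted p = 0.026), and PTGS1 at 12 h gave an adjusted p = 0.0262; 47 other member results kept their side of the threshold.

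Leaving out 1 array at a time, where the lone array left is assumed to vary like the other groups, gave 2 to 4 called members in the average, 0 to 2 at 48 h, 0 to 1 at 72 h, 0 to 3 at 12 h, 0 to 1 between times and 0 to 2 in controls over time. At 24 h it gave 0 throughout. Pathway counts were 12 to 14 in the average, 7 to 10 at 48 h and 11 to 13 at 72 h.

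Direction turned only for values that were not called, apart from ALOX5AP and PTGER3. Against control 0 h the average became log2 -0.20 for ALOX5AP, -0.17 for PTGER3, -0.12 for ALOX5 and -0.28 for LTA4H. The ALOX5 average was -0.076 with the floor at the 50th percentile and -0.020 after quantile normalization, and ALOX5 in controls from 0 to 24 h was 0.20 with that floor. The LTA4H average was -0.17 after median centring. The LTC4S average was 0.0094 over 48 and 72 h, an alternative chosen after seeing the data. TBXAS1 in controls from 0 to 24 h was -0.050 with the floor at the 30th percentile.

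Over single arrays left out, log2 ranges crossed 0 for ALOX5 in the average (-0.039 to 0.36), at 24 h (-0.71 to 0.49) and in controls to 24 h (-0.76 to 0.45). They did so for LTA4H in the average (-0.034 to 0.11), at 24 h (-0.20 to 0.0043) and at 72 h (-0.36 to 0.067). For LTC4S they ran from -0.50 to 0.37 in the average, -0.34 to 2.27 at 72 h and -0.12 to 0.17 in controls to 24 h. For PTGS1 they ran from -0.85 to 0.097 at 24 h and -0.067 to 0.54 in controls to 24 h. For TBXAS1 they ran from -1.89 to 0.85 at 24 h, -0.74 to 1.74 at 12 h and -0.74 to 2.00 in controls to 24 h. The cause was not tested for any of these changes.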

Other observations

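For 4 pathway genes 1 probe set was called in the average and another was not, and the difference between probe sets was not tested. PTGER4, a receptor for prostaglandin E2, was not called by its probe set of highest mean (log2 0.53, adjusted p = 0.25), while the other differed by log2 1.18 (adjusted p = 0.0186). LPCAT3, which inserts arachidonic acid into phospholipids, gave log2 -0.29 (adjusted p = 0.674) and 1.21 (adjusted p = 0.00589). For MAPKAPK2, 3 probe sets gave log2 0.17, -0.11 and 0.70 with adjusted p-values of 0.599, 0.66 and 0.124, beside the called 0.66. PTGER3 had a second probe set at log2 0.055 (adjusted p = 0.92), beside the called 0.42.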
